A study of Mus musculus with 6 samples.

Results

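The cathepsins and cystatins measured here are 8 lysosomal proteases and 2 of their inhibitors in the mouse mammary gland at involution day 2, when milk removal has stopped and the milk-producing epithelium starts to die. The members were taken as every probe set whose platform annotation names exactly 1 of the genes Ctsb, Ctsd, Ctsl, Ctss, Ctsh, Ctsz, Ctsc, Ctsk, Cst3 and Cstb, which gave 21 of the 45101 probe sets on the array and 10 of the 18194 genes with a probe set of their own. No measured value entered that rule. RNA came from whole glands of 3 WT and 3 Rac1-/- mice, and 1 Affymetrix array was hybridized per mouse. The Rac1-/- mice were Rac1fx/fx YFP mice with the WAPiCre transgene, in which the whey acidic protein promoter drives Cre from mid-pregnancy in luminal epithelial cells, and the WT mice carried the same floxed Rac1 alleles and YFP reporter without Cre. The paper describes the WT mice as littermates, and the age of the mice at harvest is not stated. The dams were young adults when mated and nursed a litter until the pups were taken away. Each array stands for 1 animal. Rac1 is deleted in luminal cells only, so the stroma, blood vessels, leukocytes and myoepithelium of a Rac1-/- gland keep the gene. In bulk tissue, fewer cells of a type and less RNA per cell cannot be told apart.

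Cathepsins are made as inactive precursors, sorted to the lysosome through a mannose phosphate tag, and activated there at low pH. The first phase of mammary involution is known for a lysosomal form of cell death. Stat3, switched on by the cytokine Lif, raises cathepsins B and L and lowers a serpin that holds them in check, and the proteases then leak from lysosomes into the cytosol of the milk-producing cells. Cystatins bind the active site of cysteine cathepsins, cystatin C (Cst3) mostly outside the cell and cystatin B (Cstb) inside it. Macrophages and other phagocytes also carry high cathepsin levels and enter the gland as dead cells are cleared. The study asked how loss of Rac1 from the epithelium alters the remodelling of the gland, and the comparison of WT with Rac1-/- glands at involution day 2 bears on the transcripts of this protease system.

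The identity of the tissue was clear from its markers, with Csn2 and Csn3 (caseins) at log2 intensities of 14.56 or more on all 6 arrays and Elf5 and Epcam (luminal epithelium) at 10.1 or more. Rac1 itself had a log2 fold change of 0.19 ± 0.47 (SE) on one bright probe set and -0.80 ± 0.51 on another, with overlapping groups on both, and the position of these probe sets relative to the deleted exons is not known. The arrays of the WT mouse Nas484 and the Rac1-/- mouse Nas497 separated from the remaining 4 along the leading principal component (43.6% of the variance). They lay at 115 and 195, and the others from -136 to 12.6, with Nas518 the highest of these. In the deposited values, the interquartile range of log2 intensity was 2.85, 2.42 and 1.42 in the WT mice Nas478, Nas483 and Nas484. It was 1.98, 1.23 and 1.48 in the Rac1-/- mice Nas496, Nas497 and Nas518, so Nas518 was about as narrow as Nas484. As readings of RNA quality, the log2 signal of a 3' control minus that of its 5' control was taken for actin and Gapdh. For actin it ran from -0.19 to 0.066 in WT and from -1.21 to -0.33 in Rac1-/- mice, without overlap. Values below 0 mean more 5' than 3' signal. For Gapdh it ran from -0.033 to 0.12 in WT and from -0.040 to 0.24 in Rac1-/- mice, with overlap. The part of the principal component split, of the range of the arrays and of the actin difference in the values below was not tested. Since the actin difference separates the groups, its part and that of genotype cannot be told apart in fits with it as a covariate.

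None of the 10 genes differed between the groups in limma at an adjusted p under 0.05, and among all genes 0 of 18194, or 0%, did. At an unadjusted p under 0.05 the count was also 0 of 10 members, against 4.05% of all genes. Fold changes are given as Rac1-/- minus WT on the log2 scale. Of the members, 4 had a fold change above 0 and 6 below, with a median of -0.29 that was -0.087 without Nas497 and -0.47 without Nas496, whereas 53.9% of all genes lay above 0 with a median of 0.060. The 8 cathepsins were split evenly, with 4 above and 4 below 0 and a median of -0.094. Both inhibitors lay below 0. Of the members above 0, Ctsz, Ctsc and Ctsk turned below 0 when the arrays were scaled to a common median instead of quantile normalized, and Ctss alone did not. That scaling moved the median of all genes by -0.18 and leaving out normalization moved it by 0.29, so both are given beside a gene where they turn its direction. Bright genes moved further down. The brightest 10% of genes, with 9 of the 10 members among them, had a median of -0.068 after quantile normalization. It was -0.97 with the common median and -0.50 without normalization. The intervals of single genes were wide, and the plot of all genes by mouse shows that most of this width was spread within a group.

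**Figure D1:**
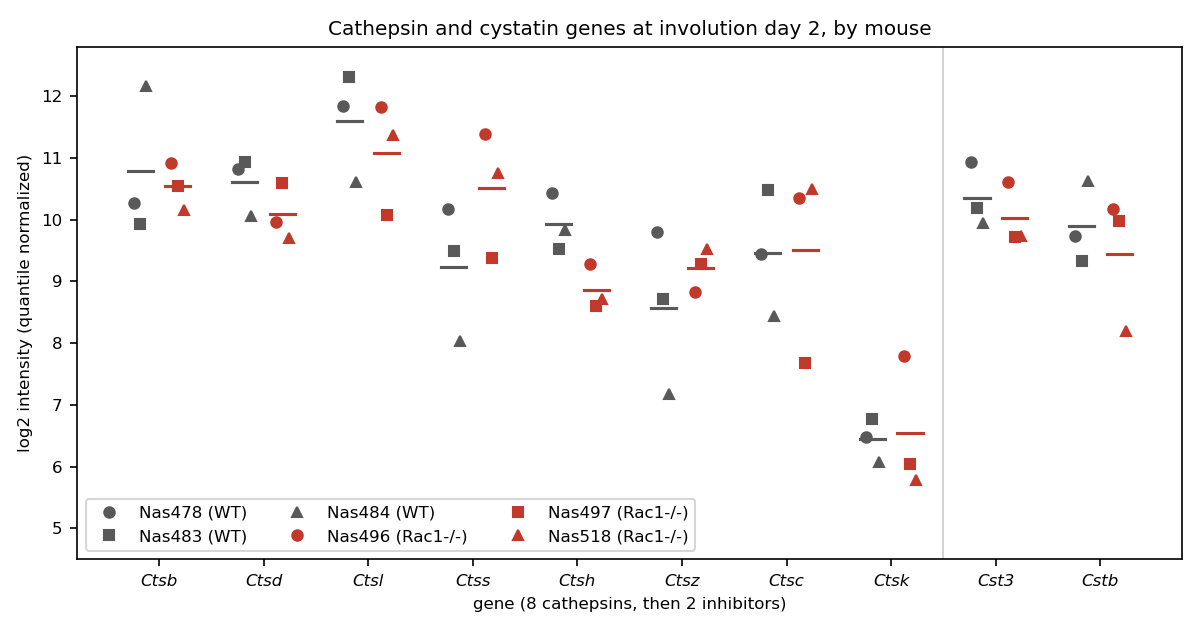
Quantile-normalized log2 intensity (vertical axis) of the 8 cathepsin and 2 inhibitor genes (horizontal axis), with 1 point per mouse, grey for the 3 WT and red for the 3 Rac1-/- mice, and a short line at each group mean. Ctsh is the gene whose groups do not overlap, with Rac1-/- values from 8.60 to 9.29 and WT values from 9.53 to 10.44.

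Ctsh, a lysosomal cysteine protease that trims amino acids from the amino end of proteins, was lower in every Rac1-/- gland than in any WT gland. Its log2 intensities were 10.44, 9.53 and 9.84 in the WT mice Nas478, Nas483 and Nas484, against 9.29, 8.60 and 8.72 in Rac1-/- Nas496, Nas497 and Nas518. The gap between the lowest WT and the highest Rac1-/- value was small beside the spread within the groups. Means of 9.94 ± 0.46 (SD, n = 3) for WT and 8.87 ± 0.37 for Rac1-/- glands gave a fold change of -1.07 ± 0.47 (SE) with a 95% interval from -2.14 to 0.0024 and a limma adjusted p of 0.946. The deposited intensities, before any normalization here, were 1962, 966 and 794 in WT against 713, 238 and 363 in Rac1-/- mice, which also do not overlap. Of all genes 4.2% had every Rac1-/- value below every WT value and 5.41% had every one above, and the 1 member of 10 is read against these shares. Ctsh (RefSeq GRCm38.p6, chr9:90054267-90076095) kept its direction in all 16 other settings, between -2.01 and -0.79. Its other probe set, 1443814_x_at, read 8.97, 8.67 and 5.79 in WT against 8.95, 3.76 and 7.09 in Rac1-/- glands, and there the groups overlap (log2 fold change -1.21 ± 1.35).

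The 11 milk genes had lower means in the same glands as Ctsh. All 11 had a fold change below 0, with a median of -1.41 and none past the adjusted threshold, and the mean of the list ran from 13.99 to 14.23 in WT and from 11.97 to 13.00 in Rac1-/- mice, with no gene at the floor of the scale. Of the 11 genes, 7 had every Rac1-/- value below every WT value, against 4.2% of all genes. An unadjusted p under 0.05 in limma with a fold change below 0 was found for 6, against 1.82% of all genes. The milk median was -2.71 after common-median scaling and -0.77 when the actin difference entered the fit as a covariate. The 12 luminal epithelial markers had 6 fold changes above and 6 below 0 and a median of -0.051, which was -0.73 and 0.42 under the same settings. Of these genes 3, with Cldn4 (1.54 ± 0.48) among them, had every Rac1-/- value above every WT value, against 5.41% of all genes. Another 2, with Elf5 (-1.45 ± 0.47) among them, had every one below, against 4.2%. Both named genes had an adjusted p of 0.946 in limma. With the actin covariate Ctsh itself was -0.79. The part of milk gene expression in the Ctsh values was not tested.

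Ctss had the largest fold change above 0 among the members. Cathepsin S is a cysteine protease of antigen-presenting cells, where it cuts the invariant chain off MHC class II, and unlike most cathepsins it stays active at neutral pH. Its log2 intensities were 10.18, 9.49 and 8.03 in the WT mice against 11.39, 9.38 and 10.76 in the Rac1-/- mice, in the same order as above. The Rac1-/- mice Nas496 and Nas518 lay above all WT mice, while Nas497 lay below Nas478 and Nas483 and the groups overlap. The fold change was 1.28 ± 0.72 (95% interval -0.37 to 2.93, adjusted p = 0.946), from a WT mean of 9.23 ± 1.10 and a Rac1-/- mean of 10.51 ± 1.03. With 1 mouse left out the value ran from 0.69 without Nas484 to 1.87 without Nas497, and it was 1.26 without both. It was 0.21 after common-median scaling and 2.83 with the actin covariate. Ctss lies on chromosome 3 (chr3:95526786-95556405), next to Ctsk. The 250 bases before its start in RefSeq (GRCm38.p6, chr3:95526536-95526785, plus strand) are shown because they hold, in capitals, a match to the interferon response core GAAANNGAAA, 21 to 12 bases before the start, a motif chosen after the windows were seen.
Ctss: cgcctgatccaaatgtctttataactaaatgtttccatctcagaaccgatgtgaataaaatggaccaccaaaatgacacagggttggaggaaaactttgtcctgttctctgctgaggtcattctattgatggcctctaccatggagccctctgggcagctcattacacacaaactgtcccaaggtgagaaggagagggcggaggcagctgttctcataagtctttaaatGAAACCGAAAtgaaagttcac

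The motif was searched on both strands and 2.98% of 32851 promoter windows hold it. A match is a description of the letters and does not show binding.

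Macrophage markers ranked the mice as Ctss did. Of 21 macrophage genes 19 had a fold change above 0, against 53.9% of all genes, with a median of 0.68. None passed the test or reached an unadjusted p under 0.05 in limma. Every Rac1-/- value lay above every WT value for 2 of the 21, against 5.41% of all genes. The median of the list was -0.059 after common-median scaling and 1.37 with the actin covariate. The mean of the list ran from 7.08 to 7.82 in WT and from 7.61 to 8.50 in Rac1-/- mice, and no gene of it was at the floor. Ranked by this mean the mice stood in the order Nas496, Nas518, Nas478, Nas483, Nas497 and Nas484, which was also their order for Ctss and for none of the other 9 members. Parts of this order are narrow, since Nas483 and Nas497 had macrophage means of 7.63 and 7.61. The adipocyte markers gave the same order but for Nas478 and Nas483, whose adipocyte means were 8.48 and 8.49. The brightest macrophage markers were the lysozymes Lyz1, at 11.83, 10.84 and 8.81 in WT against 11.67, 10.07 and 12.26 in Rac1-/- mice, and Lyz2, at 10.06, 9.37 and 9.23 in WT against 10.26, 10.04 and 10.82 in Rac1-/- mice. These genes are near-identical copies whose probes may share signal. The part of macrophage content in the Ctss values was not tested.

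**Figure D2:**
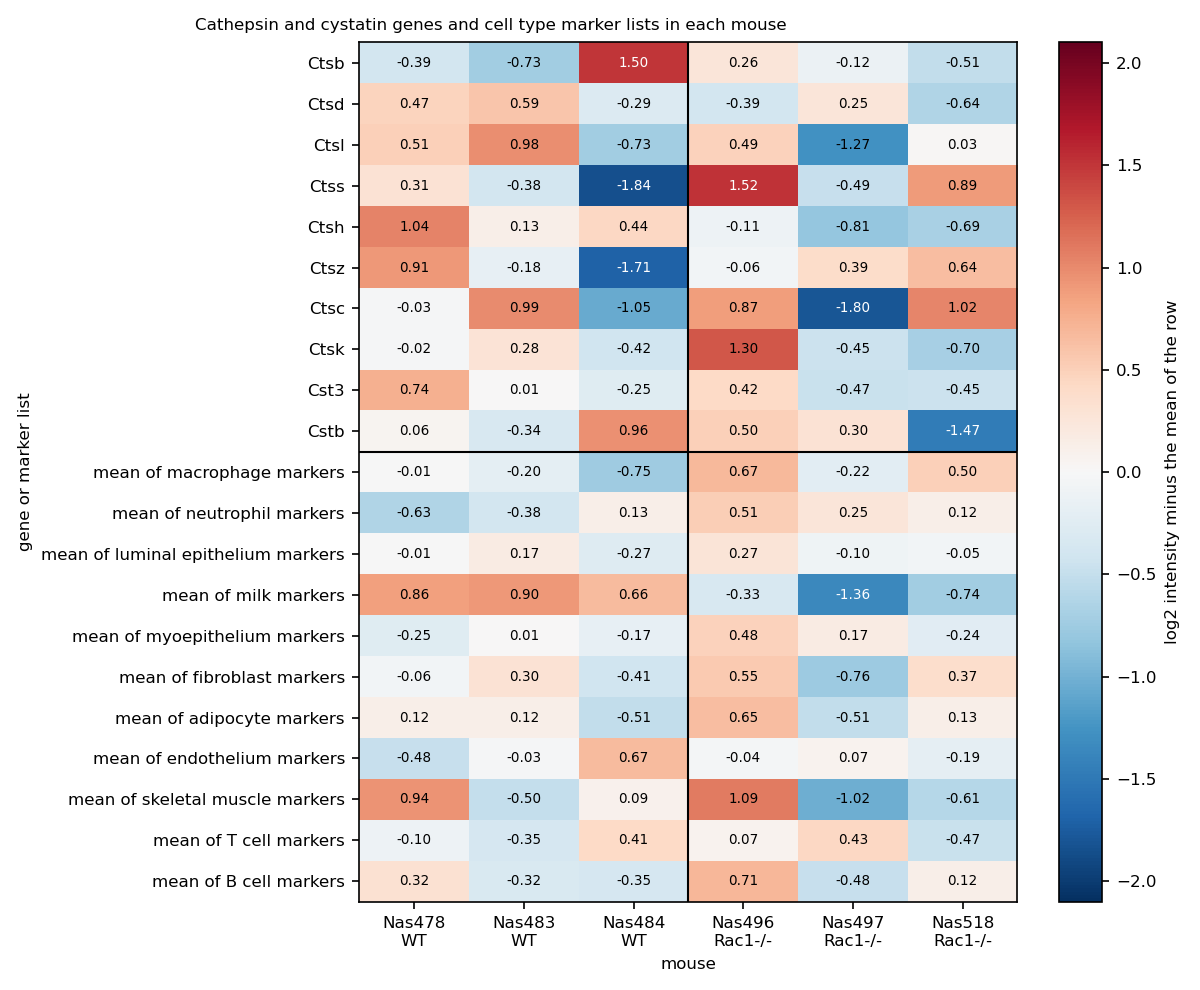
Log2 intensity of each cathepsin and cystatin gene (upper rows) and mean of each of 11 cell type marker lists (lower rows) in each mouse (columns), centred on the mean of the row, red above and blue below. The Ctss row and the macrophage row rank the mice alike, with Nas484 lowest (-1.84 and -0.75) and Nas496 highest (1.52 and 0.67), and the milk row is above 0 in the 3 WT and below 0 in the 3 Rac1-/- mice.

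The proteases of lysosomal cell death, Ctsb, Ctsl and Ctsd, had fold changes below 0, none of which passed the test. Cathepsins B and L are the broad cysteine endopeptidases of the lysosome, and cathepsin D is its main aspartic protease. Ctsb (chr14:63122462-63145923) read 10.28, 9.94 and 12.16 in WT against 10.93, 10.54 and 10.16 in Rac1-/- glands. All Rac1-/- values lay between the WT values, and Nas484 alone set the WT mean of 10.79 ± 1.20 above the Rac1-/- mean of 10.54 ± 0.38. The fold change of -0.25 ± 0.64 (95% interval -1.72 to 1.22) turned to 0.44 without that mouse and was -1.28 after common-median scaling.

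Ctsb has 5 probe sets, of which 1 had a fold change above 0 and the others below. Probe sets 1417491_at and 1444987_at were near level, at -0.052 ± 0.48 and -0.064 ± 0.48. The bright 1448732_at read 9.99, 10.03 and 12.42 in WT against 10.53, 10.44 and 9.24 in Rac1-/- mice, with the same high Nas484 value and a fold change of -0.74 ± 0.76. Without this mouse that estimate was 0.059. A dimmer probe set, 1417492_at, read 7.68, 8.28 and 8.71 against 8.40, 8.45 and 8.41 (0.20 ± 0.47), which fell below 0 after common-median scaling (-0.61) and without normalization (-0.13).

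Ctsl (chr13:64361890-64370772) read 11.85, 12.32 and 10.62 in WT against 11.83, 10.07 and 11.37 in Rac1-/- glands. The lowest value of each group was that of Nas484 or Nas497, and the groups overlap. The means were 11.59 ± 0.88 and 11.09 ± 0.91, with a fold change of -0.51 ± 0.65 (95% interval -1.98 to 0.97). It was 0.0086 without Nas497, -0.99 without Nas484 and -0.48 without both, and it was -1.65 after common-median scaling. On the dimmer probe set of Ctsl it was -0.044.

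Ctsd read 10.82, 10.94 and 10.06 in WT against 9.96, 10.60 and 9.71 in Rac1-/- glands. The WT mice Nas478 and Nas483 lay above all Rac1-/- mice and Nas484 lay among them. The fold change was -0.51 ± 0.48 (95% interval -1.62 to 0.59, adjusted p = 0.946), from means of 10.60 ± 0.48 and 10.09 ± 0.46, and it stayed below 0 in all 15 other settings that gave a value, between -1.57 and -0.33. Ctsd lies on chromosome 7 (chr7:142375910-142387827, minus strand). Its 250 bases before the start (RefSeq GRCm38.p6, chr7:142387828-142388077, minus strand) are shown for the pair of E-boxes CACGTG in capitals, at 245 to 240 and 98 to 93 bases before the start, the letters that the lysosomal regulator Tfeb and other E-box factors are known to bind.
Ctsd: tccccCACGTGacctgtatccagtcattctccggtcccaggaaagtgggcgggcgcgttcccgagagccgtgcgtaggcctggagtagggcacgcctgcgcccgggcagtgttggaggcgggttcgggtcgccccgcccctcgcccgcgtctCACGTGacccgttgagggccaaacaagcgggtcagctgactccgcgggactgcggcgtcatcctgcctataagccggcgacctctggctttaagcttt

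Windows were found for 7 of the 10 members, and Ctsb, Ctsh and Cstb were not matched. On both strands, 2 of these 7 windows, those of Ctsd and Ctsl, hold an E-box against 6.02% of all windows, and 1, that of Ctsc, holds the STAT element TTCNNNGAA against 7.02%.

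Ctsz, Ctsc and Ctsk had fold changes above 0 whose direction depended on the scaling. Ctsz (cathepsin X, chr2:174427494-174439039), a carboxypeptidase prominent in macrophages, read 9.79, 8.71 and 7.18 in WT against 8.83, 9.28 and 9.53 in Rac1-/- glands. The Rac1-/- values kept close together and lay inside the WT range. The fold change was 0.65 ± 0.68 (95% interval -0.89 to 2.19) from means of 8.56 ± 1.31 and 9.21 ± 0.36, and it was -0.45 after common-median scaling and -0.039 without Nas484. The other probe sets of Ctsz gave 0.15 ± 0.48 and 0.030 ± 0.48, and both fell below 0 under either other scaling.

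Ctsc (chr7:88278024-88315861), the dipeptidyl peptidase that activates the granule serine proteases of neutrophils, mast cells and cytotoxic lymphocytes, read 9.45, 10.48 and 8.43 in WT against 10.36, 7.68 and 10.50 in Rac1-/- glands. Nas497 was the lowest and Nas518 the highest of all 6 mice, so the Rac1-/- group spanned the whole range. Means of 9.45 ± 1.02 and 9.52 ± 1.59 gave a fold change of 0.061 ± 0.85 (95% interval -1.89 to 2.01), which was -0.76 after common-median scaling and -0.29 without normalization. Leaving out single mice moved it between -0.45 (without Nas484) and 0.99 (without Nas497). With the actin covariate it was 2.36, with an unadjusted p of 0.0153 and an adjusted p of 0.634 in limma. Of its other probe sets, 1437939_s_at gave -0.39 ± 0.82 with the opposite pattern over the mice, 7.18, 6.97 and 9.76 in WT against 6.96, 8.44 and 7.34 in Rac1-/- glands, where Nas484 and Nas497 were highest. The dimmer 1446834_at gave 0.18 ± 0.57.

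Ctsk (chr3:95499210-95509387), the collagen-degrading cathepsin of osteoclasts that fibroblasts and macrophages also make, was the 1 member outside the brightest 10% of genes. It read 6.47, 6.77 and 6.07 in WT against 7.79, 6.04 and 5.79 in Rac1-/- glands. Nas496 was high and the other Rac1-/- mice lay below all WT mice. The fold change of 0.10 ± 0.61 (95% interval -1.29 to 1.49) was -0.51 without Nas496 and -0.030 after common-median scaling.

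The inhibitors did not differ beyond the spread of the mice. Cst3 (chr2:148871722-148875512), which encodes the secreted cystatin C, read 10.93, 10.20 and 9.94 in WT against 10.62, 9.72 and 9.74 in Rac1-/- glands. Nas496 lay among the WT mice and the other Rac1-/- mice just under them. The fold change was -0.33 ± 0.50 (95% interval -1.47 to 0.80) from means of 10.36 ± 0.51 and 10.02 ± 0.51. It ran from -0.61 without Nas496 to -0.049 without Nas478, and it was -1.40 after common-median scaling.

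Cstb (chr10:78425670-78427622), the intracellular cystatin B, read 9.74, 9.33 and 10.63 in WT against 10.17, 9.97 and 8.20 in Rac1-/- glands. Only Nas518 lay below the WT range, and the fold change of -0.45 ± 0.65 (95% interval -1.93 to 1.03) became 0.18 without it and -1.43 after common-median scaling. The other probe set of Cstb, 1422506_a_at, read 10.07, 10.96 and 7.55 in WT against 12.11, 6.56 and 9.0 in Rac1-/- glands (-0.30 ± 1.40). It had the widest range of all 21 probe sets, 48.3-fold between the highest and the lowest deposited intensity, and it ranked Nas484 low where 1422507_at ranked that mouse highest.

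Over all 21 probe sets, 8 fold changes lay above 0 and 13 below, and none passed the limma threshold, as for all probe sets (0%). Only the main probe set of Ctsh had every Rac1-/- value below every WT value, 1 of 21, against 4.86% of all probe sets. For Ctsb and Ctsc the probe sets of the gene had both signs. No member value was at the floor, and 17 of the 21 probe sets lay above the median of every array.

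**Figure D3:**
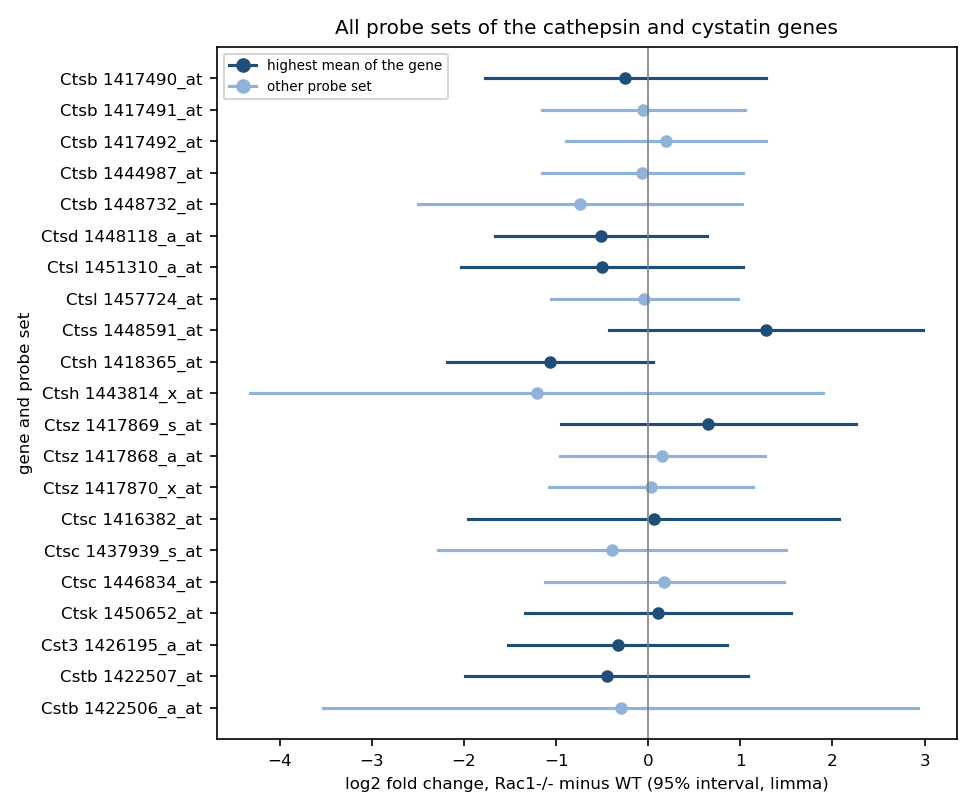
Log2 fold change, Rac1-/- minus WT (horizontal axis, point with 95% interval from the limma fit over all probe sets), of all 21 probe sets (vertical axis), dark for the probe set with the highest mean of its gene and light for the others. All 21 intervals include 0, with Ctsh 1418365_at reaching from -2.19 to 0.051 in this fit, and the widest belong to Ctsh 1443814_x_at and Cstb 1422506_a_at.

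The mice Nas484 and Nas497 were the lowest of their groups for several members, as for many other genes. Nas484 was the lowest WT mouse for 7 of the 10 members, against 6309 of all 18194 genes. Nas497 was the lowest Rac1-/- mouse for 5 members, against 5743 of all genes. Both held for 4 members (40%), against 19.4% of all genes and 28.1% of genes above the median mean. For Ctsb (12.16) and Cstb (10.63), Nas484 was instead the highest of all mice. The mean over the 10 members was 9.99, 9.77 and 9.30 in WT against 10.12, 9.19 and 9.45 in Rac1-/- mice, so the groups overlap. For the 8 cathepsins it was 9.91, 9.77 and 9.05 against 10.05, 9.03 and 9.57. For the 2 inhibitors it was 10.33, 9.76 and 10.29 against 10.39, 9.84 and 8.97, where Nas518 was low instead.

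Because 9 of the 10 members are among the brightest 10% of genes, scaling acts on them as a group. Those 1820 bright genes had a median fold change of -0.068 after quantile normalization, -0.97 after scaling to a common median and -0.50 without normalization. The median of the members was -0.29, -1.34 and -0.87 in the same order. Taken relative to the median of all genes, Ctsh was at -1.13 after quantile normalization and -1.89 after common-median scaling, Ctsd at -0.57 and -1.45, and Ctss at 1.22 and 0.32.

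**Figure D4:**
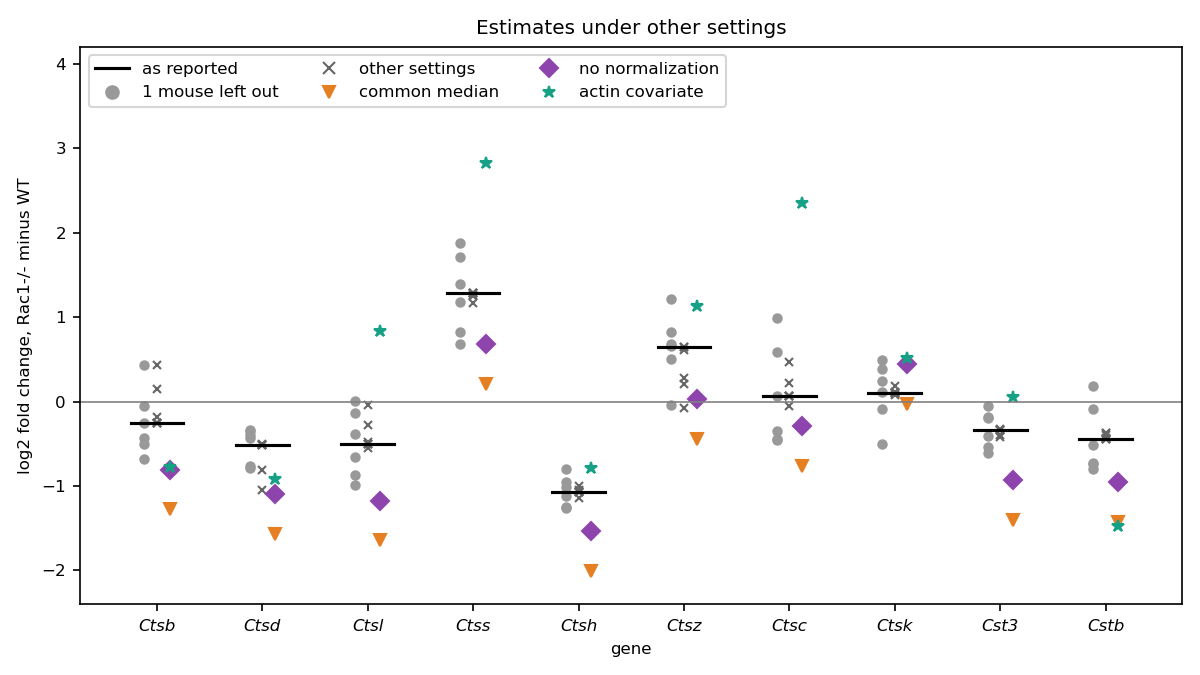
Log2 fold change, Rac1-/- minus WT (vertical axis), of each gene (horizontal axis) as reported (black line), with 1 mouse left out (grey points) and under the other settings (crosses and coloured symbols). Ctsh and Ctsd stay below 0 and Ctss above 0 at every setting drawn, and Ctsz, Ctsc and Ctsk lie above 0 as reported and below 0 after scaling to a common median.

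The other cathepsins and lysosomal proteases were split between the directions. Of 10 genes, 6 had a fold change above 0 and 4 below, with a median of 0.084 that was -0.026 after common-median scaling and -0.12 without Nas518, and none passed the test or reached an unadjusted p under 0.05. Ctsa is a carboxypeptidase that protects beta-galactosidase and neuraminidase in the lysosome. It read 8.72, 9.07 and 9.02 in WT against 8.57, 7.50 and 7.78 in Rac1-/- glands, without overlap (-0.98 ± 0.47, adjusted p = 0.946 in limma). Ctsa was the 1 gene of 10 with every Rac1-/- value below every WT value, against 4.2% of all genes. Ctsf was the 1 with every such value above, against 5.41%. Ctse, an aspartic protease of endosomes, read 7.85, 8.71 and 10.79 in WT against 9.74, 11.94 and 10.34 in Rac1-/- glands, which overlap (1.56 ± 0.85). Lgmn, the asparaginyl endopeptidase that cuts single-chain cathepsins into their mature form, had close WT values of 7.00, 7.30 and 7.12 and scattered Rac1-/- values of 8.59, 5.56 and 7.93 (0.22 ± 0.75).

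Of the other cystatins, stefins, fetuins and kininogens, 12 of 16 listed genes had a probe set of their own. Their fold changes were above 0 for 10 and below 0 for 2, with a median of 0.17. Of these 12 genes, 1 reached an unadjusted p under 0.05 in limma, against 4.05% of all genes. The mean of the list was at most 5.65 in WT and at most 6.23 in Rac1-/- mice, low on this scale, with no gene at the floor. The part of background signal in these fold changes was not tested. The median was -0.19 without Nas497, 0.58 after common-median scaling and -0.73 with the actin covariate. The gene with the unadjusted p under 0.05 was Stfa3, a stefin of the A group found in myeloid cells, with 5.32, 5.56 and 5.14 in WT against 6.38, 6.32 and 6.19 in Rac1-/- glands (0.95 ± 0.42, adjusted p = 0.946). It belongs to a cluster of near-identical genes, of which Stfa1 and Stfa2 were not analysed here, so its probe set may read more than 1 of them. Cst11, also dim, read 5.16, 4.48 and 6.24 in WT against 4.02, 5.23 and 3.91 in Rac1-/- glands, which overlap (-0.91 ± 0.61).

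Of 9 serpins that inhibit cathepsins or granule proteases, 6 had a value, 5 above and 1 below 0, with a median of 0.13 that was -0.19 without Nas484, 0.77 without Nas497 and 1.19 with the actin covariate. Serpina3g, the serpin that Stat3 is known to lower in involution, was not analysed here. Its relative Serpina3n read 6.31, 6.75 and 7.00 in WT against 8.10, 7.72 and 7.28 in Rac1-/- glands, with no overlap (1.01 ± 0.46, adjusted p = 0.946 in limma). Serpina3n was the 1 gene of 6 with every Rac1-/- value above every WT value, against 5.41% of all genes. It too belongs to a multigene family. Serpinb1a, an inhibitor of neutrophil elastase and cathepsin G, gave 0.49 ± 0.44.

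Genes for the sorting and control of lysosomal enzymes had more fold changes below than above 0. Of 15 genes, 10 lay below 0 and 5 above, where 46.1% of all genes lay below, and none reached an unadjusted p under 0.05. The median of -0.34 was -0.049 without Nas497, -0.89 after common-median scaling and 0.27 with the actin covariate. Gnptg, a subunit of the enzyme that attaches the mannose phosphate tag, read 7.17, 6.94 and 6.99 in WT against 6.81, 5.24 and 5.88 in Rac1-/- glands (-1.06 ± 0.52). Sort1, the sorting receptor sortilin, read 7.98, 8.49 and 8.70 in WT against 7.74, 7.63 and 7.75 in Rac1-/- glands (-0.68 ± 0.43). Of the 15 genes 3, these and Psap, had every Rac1-/- value below every WT value, against 4.2% of all genes. Gnptg and Sort1 are named for the smallest p of the list, and both had an adjusted p of 0.946 in limma.

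On the Lif, oncostatin M and Stat3 axis, 6 of 11 genes had a fold change above 0 and 5 below, with a median of 0.15 that was -0.67 after common-median scaling, 0.60 without Nas484 and Nas497 together and 0.73 with the actin covariate. Lif, the cytokine that starts Stat3 signalling in the involuting epithelium, read 6.33, 6.17 and 6.14 in WT against 7.71, 7.81 and 7.10 in Rac1-/- glands. The groups did not overlap, with a fold change of 1.32 ± 0.43 (unadjusted p = 0.015 and adjusted p = 0.946 in limma). Lif was the 1 gene of 11 with every Rac1-/- value above every WT value, against 5.41% of all genes. Lifr was the 1 with every such value below, against 4.2%. Il6, a related cytokine, had a WT value at the floor in Nas483 and 1.60 and 5.13 in the other WT mice, against 4.68, 4.70 and 5.31 in Rac1-/- glands, and no fold is given for it. Stat3 itself was nearly level, at 9.90, 9.86 and 9.58 in WT against 10.08, 10.07 and 9.63 in Rac1-/- glands (0.15 ± 0.42, 95% interval -0.82 to 1.11).

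Markers of other cell types were counted in the same fit, and no gene of any list passed the test. Neutrophil markers had 8 of 12 genes above 0 and a median of 0.31, which was 1.13 after common-median scaling and 1.60 without normalization, with list means from 4.96 to 5.72 in WT and from 5.71 to 6.10 in Rac1-/- mice. Of the neutrophil genes 3, Clec4d, Fpr2 and Mpo, had an unadjusted p under 0.05 in limma and every Rac1-/- value above every WT value. Of all genes, 2.23% had such a p with a fold change above 0, and 5.41% had every Rac1-/- value above. In WT mice Clec4d read 3.65 to 5.29 and Mpo 3.40 to 4.93, low on this scale. The brightest neutrophil genes, S100a8 and S100a9, had fold changes of -0.096 ± 0.45 and 0.73 ± 0.81, and 4 of the 12 genes lay below 0. The medians of the other lists took both signs over the settings tried. They were 0.097 for fibroblasts (-0.93 to 1.38 over the settings), 0.18 for myoepithelium (-0.42 to 0.52), 0.060 for adipocytes (-0.56 to 0.87), -0.098 for endothelium (-0.66 to 0.29), -0.40 for skeletal muscle (-1.27 to 0.21), -0.14 for T cells (-0.37 to 0.72) and 0.16 for B cells (-0.42 to 0.37). Their part in the values of the cathepsins and cystatins was not tested.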

How the data were processed

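The authors amplified gland RNA with a kit made for small amounts of low-quality RNA. They hybridized 1 Affymetrix array per mouse and deposited 1 linear intensity per probe set. How probe sets were summarized, normalized and tested is not given in the sources used here. With the highest and lowest 2% of values set aside, the mean of every array is 100. No count lies behind an array value, so 3 mice per group limit the precision.

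Quantile normalization was done with limma 3.58.1 in R 4.3.3, values below 1 were raised to 1, and log2 was taken. Gene names came from the platform annotation, in which 34958 probe sets have 1 symbol, 932 several and 9211 none, and probe sets with several or none were left out of the gene fit. Groups were compared with lmFit and eBayes over 18194 genes, taking the probe set with the highest mean per gene, and over 45037 probe sets without the 64 controls, with Benjamini-Hochberg adjustment and a threshold of 0.05. An exact permutation test of 3 against 3 cannot go below p = 0.1 and was not used. The script was tested on simulated data.

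The members and lists were chosen with earlier results of these data known. All 10 members are named, with the 2 genes of smallest p in each pathway list, Lgmn, Serpina3g and Stat3, the 2 brightest genes of marker lists, and the 5 genes with the closest profile, and any others serve a count. Locations are from RefSeq GRCm38.p6. Alternatives changed the scaling, the offset, the filter on dim features, the prior variance, array weights, the probe set rule, the mice included, or added actin as a covariate.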

Additional observations from a re-analysis of the deposited data

How the results depend on the processing

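No gene or probe set passed the adjusted threshold in any of the 16 other settings of the gene fit or the 14 of the probe set fit. At an unadjusted p under 0.05 between 0 and 2 members were counted in limma. No paired analysis was possible because the labels do not tell which mice of the groups were littermates. Ctsh, Ctsd and Ctss kept their direction throughout, and Ctss ran from 0.21 with common-median scaling to 2.83 with the actin covariate. With that covariate the median was 0.28 for the members, 0.27 for the sorting genes and -0.73 for the other cystatins, each on the other side of 0. Leaving out probe sets with names ending in _x_at, _s_at or _a_at, of which the last marks several transcripts of a gene, removed Ctsd, Cst3 and Ctsz and left Ctsl on its dimmer probe set (-0.044), so 7 members had a value.

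Scaling to a common median turned Ctsz to -0.45, Ctsc to -0.76 and Ctsk to -0.030, and probe sets Ctsb 1417492_at to -0.61, Ctsc 1446834_at to -0.22, Ctsz 1417868_a_at to -0.76 and Ctsz 1417870_x_at to -0.75. Without normalization between arrays, Ctsc was -0.29, Ctsb 1417491_at 0.14, Ctsb 1417492_at -0.13, Ctsb 1444987_at 0.22, Ctsl 1457724_at 0.25, Ctsz 1417868_a_at -0.29 and Ctsz 1417870_x_at -0.28. With the actin covariate, Cst3 was 0.048, Ctsl 0.84, Cstb 1422506_a_at 2.82, Ctsb 1417492_at -0.0076, Ctsb 1444987_at 0.39, Ctsh 1443814_x_at 2.29, Ctsz 1417868_a_at -0.16 and Ctsz 1417870_x_at -0.32. With array weights, Ctsb was 0.15, Ctsz 1417868_a_at -0.061 and Ctsz 1417870_x_at -0.13. The mean over its probe sets put Ctsc at -0.052. Without Nas484 and Nas497 together, Ctsb was 0.44, Ctsz -0.073, Cstb 1422506_a_at 0.034, Ctsc 1437939_s_at 0.087, Ctsc 1446834_at -0.050, Ctsz 1417868_a_at -0.27 and Ctsz 1417870_x_at -0.29.

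With 1 mouse left out at a time, fold changes that crossed 0 ran from -0.68 to 0.44 for Ctsb, -0.99 to 0.0086 for Ctsl, -0.039 to 1.21 for Ctsz, -0.45 to 0.99 for Ctsc, -0.51 to 0.49 for Ctsk and -0.80 to 0.18 for Cstb. For probe sets they ran from -1.70 to 1.06 for Cstb 1422506_a_at, -0.26 to 0.18 for Ctsb 1417491_at, -0.075 to 0.45 for Ctsb 1417492_at, -0.28 to 0.14 for Ctsb 1444987_at, -1.14 to 0.059 for Ctsb 1448732_at, -0.87 to 0.52 for Ctsc 1437939_s_at, -0.21 to 0.42 for Ctsc 1446834_at, -2.34 to 0.23 for Ctsh 1443814_x_at, -0.17 to 0.12 for Ctsl 1457724_at, -0.056 to 0.38 for Ctsz 1417868_a_at and -0.15 to 0.28 for Ctsz 1417870_x_at. For each of these the cause was not tested.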

Other observations

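Of 9087 other genes above the median mean, the 5 whose profile over the 6 arrays was most like the mean standardized profile of the 10 members were Tmem51, Fbxw4, Polr2b, Gipc1 and Vamp8, with Pearson correlations of 0.991, 0.990, 0.983, 0.983 and 0.983. These are given as a description, since the points share the arrays and their differences in range. Vamp8, a SNARE protein of late endosomes and of secretory granules, read 10.71, 10.33 and 9.42 (log2 intensity) in WT Nas478, Nas483 and Nas484, against 10.62, 9.51 and 9.42 in the Rac1-/- mice Nas496, Nas497 and Nas518. Polr2b, a core subunit of RNA polymerase II, read 7.31, 7.04 and 5.54 in WT against 7.23, 5.02 and 5.24 in Rac1-/- mice. Both were high in Nas478, Nas483 and Nas496 and low in Nas484, Nas497 and Nas518.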
